A study of Mus musculus with 6 samples.

Results

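This account describes the matrix metalloproteinase (MMP) genes that lie outside the MMP cluster of chromosome 9, together with the genes of the tissue inhibitors of metalloproteinases (TIMPs), in cultured mouse podocytes. The 10 genes were listed by family: Mmp2, Mmp9, Mmp11, Mmp14, Mmp15, Mmp19, Mmp23, Timp1, Timp2 and Timp3. A gene was read from the probe set annotated with that symbol alone, which was found for 9 of the 10 genes, among 30704 genes tested in all, and each of the 9 had a single such probe set. No probe set of Mmp15 was named in the annotation used here, so its expression was not analysed here. Podocytes are the epithelial cells whose foot processes form the outer layer of the kidney's filtration barrier. Both groups came from conditionally immortalized mouse podocyte lines, which proliferate under a permissive condition and differentiate when it is withdrawn, and RNA was taken after 10 days of differentiation, with type I collagen as the substrate. The wildtype group had 3 arrays and the group with knockout of Nck1 and Nck2, adaptor proteins that couple phosphotyrosine signals to actin, had 3 arrays. The study describes the replicates as independent replicates of each line, so the p-values measure the spread within a line, and the genotype and any other difference between the lines cannot be told apart.

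MMPs are zinc-dependent proteases made as inactive precursors whose prodomain must be removed before they can cut matrix and cell surface proteins. TIMPs bind the active site of the proteases, and TIMP-2 has a further role, since it tethers the MMP-2 precursor to the membrane-bound MMP-14, which activates it. In the glomerulus the gelatinases MMP-2 and MMP-9 are known for cutting type IV collagen, the main collagen of the basement membrane that podocytes rest on and help to build.

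Values are log2 intensities, on which a difference of 1 is a doubling. The array medians over genes ran from 7.08 to 7.22, and Pearson correlations of array pairs across genes ran from 0.993 up inside a group and to 0.985 at most between groups. A mean at or below 7.78, the highest mean of 23 background probe sets, is called within the background range. Of the targeted genes, Nck1 fell by 0.51 in knockout (limma adjusted p = 0.00391), and Nck2 differed by -0.24 (adjusted p = 0.0941) with both of its means within the background range. Of 9 measured podocyte markers, 5, Nphs1 and Wt1 among them, were no brighter than the background range in either line. The others were Cd2ap (11.15 in wildtype and 11.23 in knockout), Synpo, Podxl and Lmx1b, and none of the 9 passed the threshold.

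Of the 9 measured MMP and TIMP genes, 4 were higher in knockout, 1 was lower and 4 did not pass (limma, Benjamini-Hochberg adjusted p under 0.05 over all genes). The genes that rose were the proteases Mmp14 and Mmp19 and the inhibitors Timp2 and Timp3, and the gene that fell was the gelatinase Mmp2. Over all genes tested the same rule called 12.0%, with 5.05% higher and 6.90% lower. Of all genes, 62.9% had a mean within the background range. When only the 15352 genes above the median of all genes were fitted, 4154 of them passed, and so did 5 of the 8 members among them. The median log2 difference was 0.20 over the 9 genes and 0.012 over all genes, and the median size of the difference was 0.31 and 0.077. The 3 knockout values lay wholly above or wholly below the 3 wildtype values for 6 of the 9 genes, 5 higher and 1 lower, against 27.4% of all genes (12.6% higher and 14.8% lower). The split over all genes was 1552 higher and 2118 lower, and it became 2366 higher and 1717 lower when each chromosome's median difference was taken off.

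**Figure D1:**
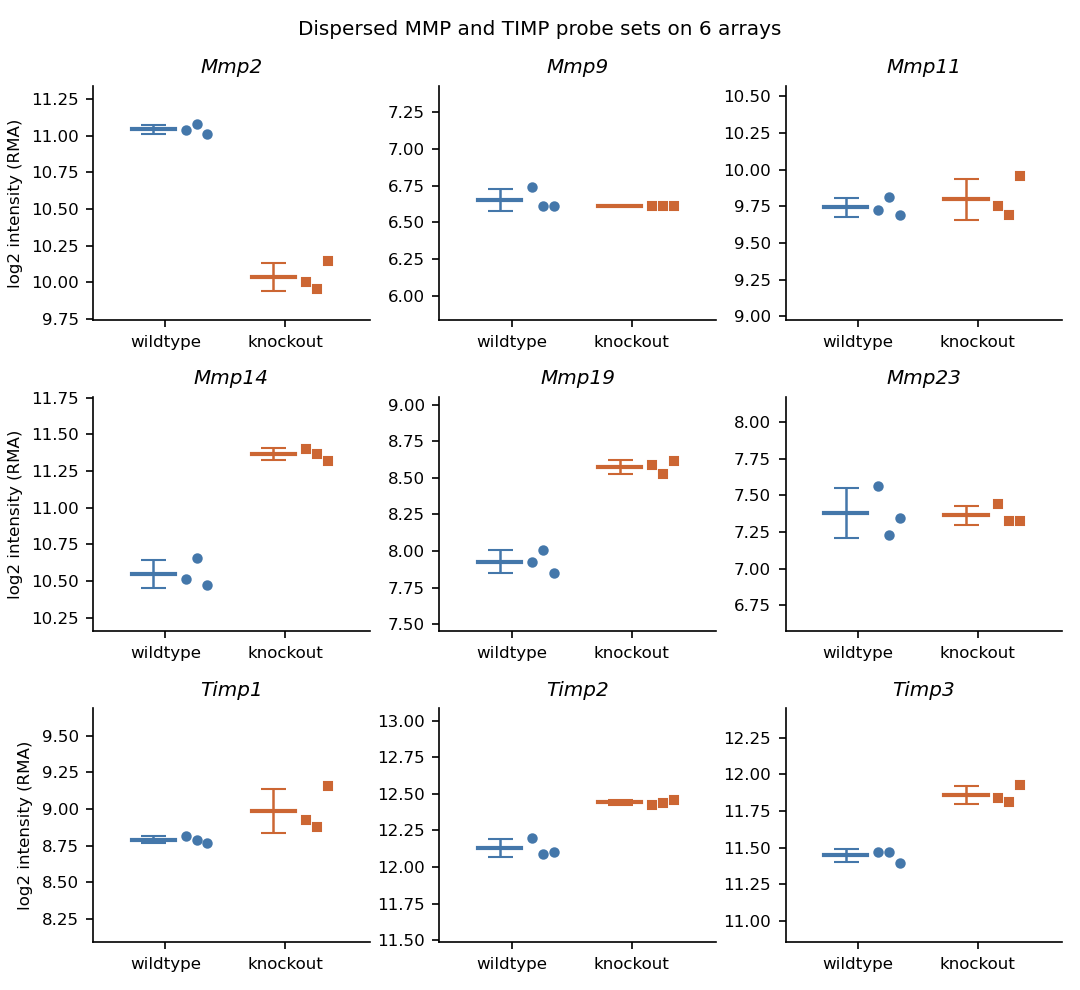
Log2 intensity (vertical axes, each spanning 1.6 units) of the 9 measured genes on the 3 wildtype arrays (circles) and 3 knockout arrays (squares), with the mean as a bar and the SD as whiskers. Mmp2 dropped, Mmp14, Mmp19, Timp2 and Timp3 rose without overlap between groups, and Mmp9 sat at nearly 1 value on all arrays.

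The gelatinases differed from each other. Mmp2, which encodes gelatinase A, read 11.04, 11.08 and 11.01 on the wildtype arrays and 10.00, 9.96 and 10.14 on the knockout arrays. All knockout values were about 1 unit under all wildtype values, and both groups were well above the background range. The mean fell from 11.04 ± 0.03 to 10.03 ± 0.10 (SD, n = 3 each), a log2 difference of -1.01 with a standard error of 0.06 (limma adjusted p = 0.000208), which is a 2.01-fold decrease with a 95% confidence interval of 1.82 to 2.23. Only 1.64% of all genes had a larger difference in either direction. Mmp9, which encodes gelatinase B, was at 6.74 on wildtype array 1 and at 6.61 on each of the other 5 arrays, where the deposited values were identical. The means of 6.65 ± 0.08 and 6.61 lay within the background range, and the difference of -0.04 (95% confidence interval -0.17 to 0.08, limma adjusted p = 0.757) was not separated from background in either line.

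Mmp14 encodes the membrane-type protease MT1-MMP, which cleaves collagen at the cell surface and activates the MMP-2 precursor. Its values were 10.51, 10.65 and 10.47 in wildtype and 11.40, 11.37 and 11.32 in knockout, with no overlap. The mean rose from 10.55 ± 0.10 to 11.36 ± 0.04 (SD, n = 3 each), a log2 difference of 0.82 with a standard error of 0.06 (limma adjusted p = 0.00049), or 1.76-fold with a 95% confidence interval of 1.59 to 1.95. The direction of Mmp14 was therefore opposite to that of Mmp2. The Mmp14 promoter is shown because this gene had the largest rise of the 9. It covers 250 bases before to 50 after the start site (RefSeq, GRCm38.p6, chr14:54431348-54431647, plus strand), with GC boxes in capitals.
Mmp14 promoter: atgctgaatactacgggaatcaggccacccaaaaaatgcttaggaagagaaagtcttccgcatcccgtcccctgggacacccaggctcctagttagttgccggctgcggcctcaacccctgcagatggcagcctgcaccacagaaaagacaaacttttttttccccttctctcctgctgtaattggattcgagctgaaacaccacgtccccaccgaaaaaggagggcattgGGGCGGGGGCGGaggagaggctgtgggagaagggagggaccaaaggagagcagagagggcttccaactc
The capitals mark 2 adjoining copies of the GC box GGGCGG, the kind of element bound by Sp1 family factors.

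The other secreted or membrane-anchored proteases split into 1 gene that rose and others that did not pass. Mmp19, which encodes a secreted protease that acts on basement membrane proteins, read 7.93, 8.01 and 7.85 in wildtype and 8.59, 8.52 and 8.61 in knockout. The groups did not overlap, and the wildtype mean lay just above the background range. The mean rose from 7.93 ± 0.08 to 8.58 ± 0.05 (SD, n = 3 each), a log2 difference of 0.65 with a standard error of 0.06 (limma adjusted p = 0.000922). Mmp11, which encodes stromelysin-3, a protease activated inside the cell by furin, was at 9.72, 9.81 and 9.69 in wildtype and 9.75, 9.69 and 9.96 in knockout. These groups overlapped, and the difference of 0.06 had a 95% confidence interval of -0.14 to 0.25 (limma adjusted p = 0.809). Mmp23, which encodes a membrane-anchored protease without the usual hemopexin domain, had both means within the background range (7.38 ± 0.17 and 7.36 ± 0.07), with a difference of -0.02 (95% confidence interval -0.24 to 0.21, limma adjusted p = 0.97).

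Each of the 3 inhibitor genes was higher on every knockout array than on any wildtype array, an order found upward in 12.6% of all genes, and 2 of them passed the test. Timp3 encodes the TIMP that binds to the extracellular matrix and also inhibits ADAM and ADAMTS proteases. It read 11.47, 11.47 and 11.39 in wildtype and 11.84, 11.81 and 11.92 in knockout, and its mean rose from 11.45 ± 0.05 to 11.86 ± 0.06 (SD, n = 3 each), a log2 difference of 0.41 with a standard error of 0.05 (limma adjusted p = 0.00381). Timp2, the inhibitor that also serves MMP-2 activation, read 12.20, 12.09 and 12.10 in wildtype and 12.43, 12.44 and 12.46 in knockout. Its mean rose from 12.13 ± 0.06 to 12.44 ± 0.02, a log2 difference of 0.31 with a standard error of 0.05 (limma adjusted p = 0.00927), and the call was lost without wildtype replicate 3 (0.30, limma adjusted p = 0.0554). In fold terms these were modest rises of 1.33 for Timp3 and 1.24 for Timp2.

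Timp1 encodes the inhibitor that binds the MMP-9 precursor. Its values were 8.81, 8.79 and 8.77 in wildtype and 8.93, 8.88 and 9.16 in knockout, with knockout array 3 standing above the others. The difference of 0.20 (standard error 0.08) missed the threshold (limma adjusted p = 0.21, and 0.0215 to 0.446 over the alternatives). Timp1 is X-linked, and the median difference of 297 brighter protein-coding X genes was -0.21, while that of 3 such Y genes was 2.84. With the chromosome medians taken off, the Timp1 difference was 0.41 and passed (limma adjusted p = 0.0215). The promoters of the 3 listed TIMP genes are shown because each of these genes was higher on every knockout array than on any wildtype array. GC boxes on either strand are in capitals (RefSeq, GRCm38.p6). The windows are Timp1 at chrX:20869916-20870215 (plus strand), Timp2 at chr11:118355362-118355661 (minus strand) and Timp3 at chr10:86300162-86300461 (plus strand).
Timp1 promoter: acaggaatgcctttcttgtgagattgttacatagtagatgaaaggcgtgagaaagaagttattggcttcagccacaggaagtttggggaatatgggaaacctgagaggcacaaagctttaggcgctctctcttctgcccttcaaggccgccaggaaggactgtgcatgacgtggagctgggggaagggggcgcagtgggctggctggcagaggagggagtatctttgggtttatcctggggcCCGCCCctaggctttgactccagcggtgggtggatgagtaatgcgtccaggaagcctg
Timp2 promoter: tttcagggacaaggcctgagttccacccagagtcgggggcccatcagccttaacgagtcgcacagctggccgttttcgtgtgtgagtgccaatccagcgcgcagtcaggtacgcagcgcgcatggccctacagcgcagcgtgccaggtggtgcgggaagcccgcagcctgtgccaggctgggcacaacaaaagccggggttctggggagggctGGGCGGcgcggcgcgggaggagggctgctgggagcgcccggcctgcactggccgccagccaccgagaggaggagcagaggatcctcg
Timp3 promoter: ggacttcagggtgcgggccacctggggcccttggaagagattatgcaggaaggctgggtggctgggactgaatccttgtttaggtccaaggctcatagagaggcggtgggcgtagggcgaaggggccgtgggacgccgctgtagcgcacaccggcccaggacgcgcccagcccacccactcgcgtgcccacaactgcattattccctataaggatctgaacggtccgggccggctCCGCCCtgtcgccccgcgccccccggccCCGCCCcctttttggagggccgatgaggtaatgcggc
The Timp3 window held 2 GC boxes and the Timp1 and Timp2 windows 1 each, read as CCGCCC where the box lies on the opposite strand.

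Promoter windows were found for 7 of the 10 genes (8 windows, of which Mmp23 had 2), and Mmp2, Mmp9 and Mmp19 were not among them. The GC box GGGCGG occurred on either strand in at least 1 window of each of the 7 genes, while 35.7% of all 32851 promoter windows of the same length of 300 bases held it. The windows of the members were 55 to 68.7% G or C, against a median of 52.7% over all windows. The AP-1 element TGANTCA, present in 7.81% of all windows, and the TATA box TATAAA, present in 13.6%, were found on neither strand of any of the 8. The motifs did not overlap each other. Genes that rose and genes that did not pass alike held the GC box.

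Because MMP-2 is activated by MMP-14 with TIMP-2, and TIMP-1 binds the MMP-9 precursor, ratios within an array were compared for such pairs. Mmp14 with Timp3 was also included, which gave 5 pairs. The genes themselves were chosen with earlier results of these data known. Only the change of a ratio between lines is read, since levels of different probe sets are not comparable. The Mmp2 to Timp2 ratio on the log2 scale was -1.16, -1.01 and -1.09 in wildtype and -2.42, -2.48 and -2.32 in knockout. It changed by -1.32, which left 40.0% of the wildtype ratio. The Mmp2 to Mmp14 ratio changed by -1.83, leaving 28.2%. The ratios of Mmp14 to Timp2 and of Mmp14 to Timp3 changed the other way, by 0.51 and 0.40, so the Mmp14 signal gained on both inhibitors. The Mmp9 to Timp1 ratio changed by -0.24, a value that rests on a background-range Mmp9 signal and was -0.15 without knockout replicate 3. The groups did not overlap in any of the 5 ratios. For Mmp2 against Timp2 and against Mmp14 this was fixed in advance, since these genes changed in opposite directions without overlap. For Mmp9 against Timp1 it was fixed as well. No knockout value of Mmp9 exceeded a wildtype value, while every knockout value of Timp1 exceeded every wildtype value. How often other gene pairs separate was not computed. Each of the 5 ratios had an exact two-sided permutation p of 0.1 (0.1 after Benjamini-Hochberg adjustment over the 5). This is the smallest p that the 20 splits of 6 arrays allow, so the test could not pass a threshold of 0.05.

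**Figure D2:**
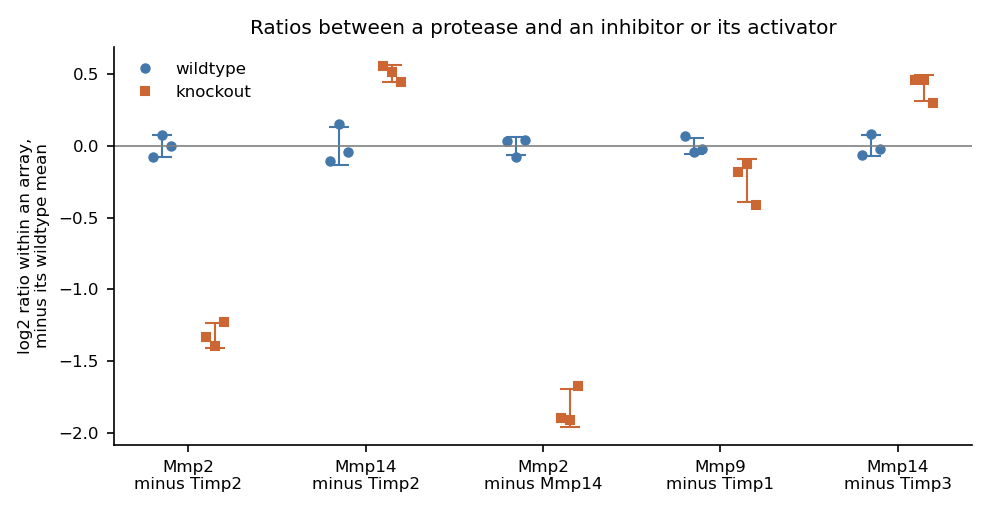
Log2 ratio of a gene pair within an array, minus the mean of the wildtype arrays (vertical axis), for 5 pairs (horizontal axis), with 3 wildtype arrays as circles, 3 knockout arrays as squares and SD whiskers around each mean. The ratio of Mmp2 changed by -1.32 against Timp2 and by -1.83 against Mmp14, while that of Mmp14 changed by 0.51 against Timp2 and 0.40 against Timp3.

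The remaining dispersed family genes showed little signal. Of 7 further genes (Mmp16, Mmp17, Mmp21, Mmp24, Mmp25, Mmp28 and Timp4), 6 had both means within the background range, and Mmp16, a membrane-type protease gene, was lower by 0.33 within it (6.12 ± 0.04 to 5.79 ± 0.05, limma adjusted p = 0.00675). In the chromosome 9 cluster 3 of 10 genes rose, the stromelysin genes Mmp10 (4.73) and Mmp3 (0.42) and the collagenase gene Mmp13 (1.31), with only the knockout mean of Mmp10 above the background range. Of the 9 measured dispersed genes, those that changed, Mmp2, Mmp14, Mmp19, Timp2 and Timp3, had both means above that range.

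**Figure D3:**
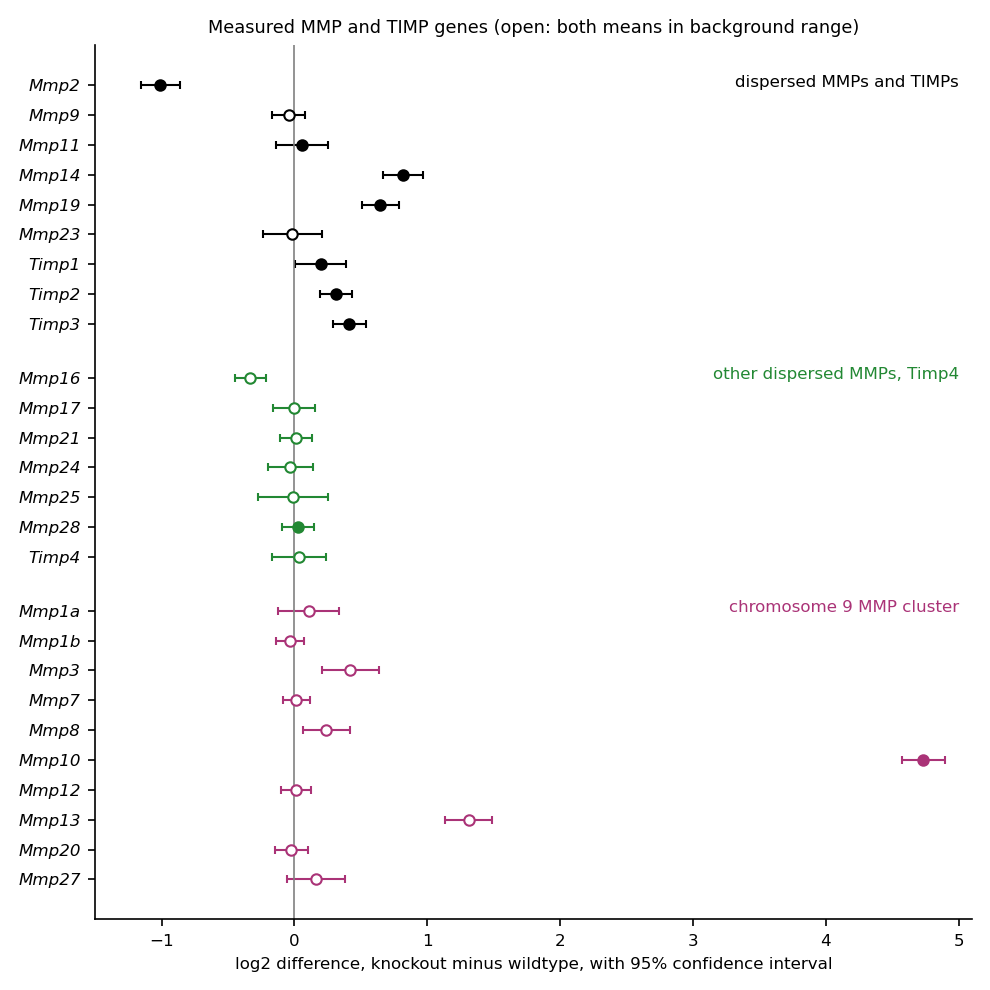
Log2 difference, knockout minus wildtype, with its 95% confidence interval (horizontal axis) for the 9 measured genes, 7 other dispersed family genes and 10 genes of the chromosome 9 cluster. Open circles have both means within the background range. Mmp2 is the lowest point at -1.01, Mmp14 at 0.82 is the highest of the dispersed genes, and Mmp10 of the cluster reaches 4.73.

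The 9 measured genes lie on 7 chromosomes, with Mmp11, Mmp19 and Timp3 on chromosome 10. Among the 5 nearest tested genes on each side of the 10 listed genes, 100 in all, 10 were higher and 11 lower in knockout, 21.0% called, against 12.0% over all genes. Around Mmp2, 2 genes rose and 1 fell, the last being the homeobox gene Irx5 (-0.29, chosen after its value was seen). Next to Mmp2, Lpcat2, a phospholipid acyltransferase gene, rose by 1.27 (standard error 0.09, limma adjusted p = 0.000427) and Capns2, a calpain small subunit gene, by 0.70 with means that stayed within the background range. Around Mmp14, the amino acid transporter gene Slc7a7 rose by 1.21 from a background-range wildtype mean and the arginine methyltransferase gene Prmt5 by 0.52, and the other 8 genes did not pass. Around Mmp19, 4 of 10 genes rose and none fell, led by the diacylglycerol kinase gene Dgka, from 7.90 ± 0.11 to 9.61 ± 0.03, a log2 difference of 1.71 (limma adjusted p = 3.79e-05). The next was the ribosomal pseudogene Rpsa-ps2 (0.74), which can share probes with its parent gene. Around Timp3, 3 genes fell and none rose, among them Ttc41 (-0.59, within the background range in each line) and the ubiquitin ligase adaptor gene Fbxo7 (-0.40). Around Timp1 on the X chromosome, 3 fell and none rose, among them the kinase gene Araf (-0.59), and around Timp2 the exchange factor gene Cyth1 fell (-0.35). Beside the genes that did not pass or were not measured, the macrophage migration inhibitory factor gene Mif (0.74) rose near Mmp11, the phospholipid transfer protein gene Pltp (-0.75) fell near Mmp9 and the kinesin gene Kifc3 (-0.65) fell near Mmp15, and none of the 10 genes around Mmp23 passed. Timp3 lies inside the synapsin gene Syn3 and Timp1 inside Syn1. Syn3 was lower by 0.22 (limma adjusted p = 0.03) and Syn1 differed by 0.22 (limma adjusted p = 0.0855), both within the background range, so Syn3 and Timp3 changed in opposite directions. In the reference table the ends of Mmp19 and Mmp23 also overlap those of Tmem198b (0.24, limma adjusted p = 0.0528) and Mib2 (-0.08, limma adjusted p = 0.341), named here for the overlap. The non-coding gene Gm45472 partly overlaps Mmp2 and Cep295nl lies inside Timp2, and neither was among the genes tested. The strand of the probes was not given, so shared signal at these overlaps was not tested.

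**Figure D4:**
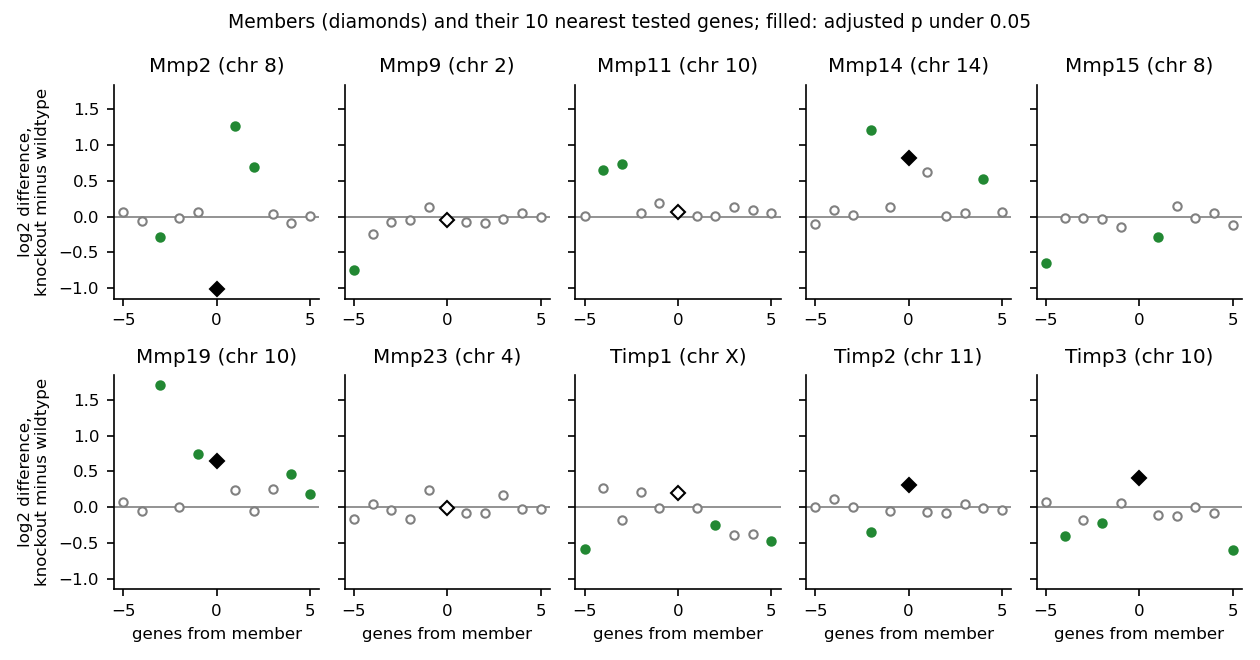
Log2 difference, knockout minus wildtype (vertical axes), of each listed gene (diamonds) and its 10 nearest tested genes (circles) in order along the chromosome (horizontal axes), filled where the adjusted p was under 0.05. Mmp2 at -1.01 has neighbours at 1.27 and 0.70 (the latter within the background range), and 4 of the 10 neighbours of Mmp19 rose. Mmp15 has no diamond because it had no named probe set.

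Genes that activate, dock or clear MMPs moved in both directions. Among 29 measured genes there were 6 that rose and 2 that fell, while 21 missed the threshold, and the median was 0.08. Lrp1, the endocytic receptor that takes up MMP-2, MMP-9 and TIMPs, rose from 8.88 ± 0.11 to 10.49 ± 0.10, a log2 difference of 1.62 (standard error 0.08, limma adjusted p = 8.15e-05). Pcsk6, a proprotein convertase gene, fell from 8.34 ± 0.12 to 7.18 ± 0.06 (-1.16, limma adjusted p = 0.000217), its knockout mean being within the background range. The cathepsin B gene Ctsb rose by 0.75 (limma adjusted p = 0.00118). Furin, the convertase that removes the MMP-14 and stromelysin-3 prodomains, and Reck, a membrane inhibitor of MMP-2, MMP-9 and MMP-14, were chosen after their values were seen. They differed by 0.14 (95% confidence interval 0.0024 to 0.28, limma adjusted p = 0.208) and -0.16 (-0.34 to 0.01, limma adjusted p = 0.258).

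Other metalloproteases that TIMPs inhibit, or that process procollagen, gave 3 higher, 2 lower and 12 not past the threshold of 17 measured. The aggrecanase gene Adamts5, a protease inhibited by TIMP-3, rose by 1.42 (standard error 0.07, limma adjusted p = 9.07e-05) and Adam19 by 0.79 from a background-range wildtype mean, while Pcolce, whose product enhances procollagen cleavage, fell by 0.70. Among matrix proteins that the gelatinases or MT1-MMP cut, 9 of 23 rose, 5 fell and 9 did not pass, with a median of 0.04. Those with the largest fitted differences were Dcn (4.33, from a wildtype mean within the background range), Col1a1 (3.03) and Col4a2 (2.56). The 5 that fell, named after their values were seen, were Col4a6 (-1.02), Col4a5 (-0.98), Dag1 (-0.68), Fn1 (-0.57) and Hspg2 (-0.57). Type IV collagen genes thus moved in both directions.

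**Figure D5:**
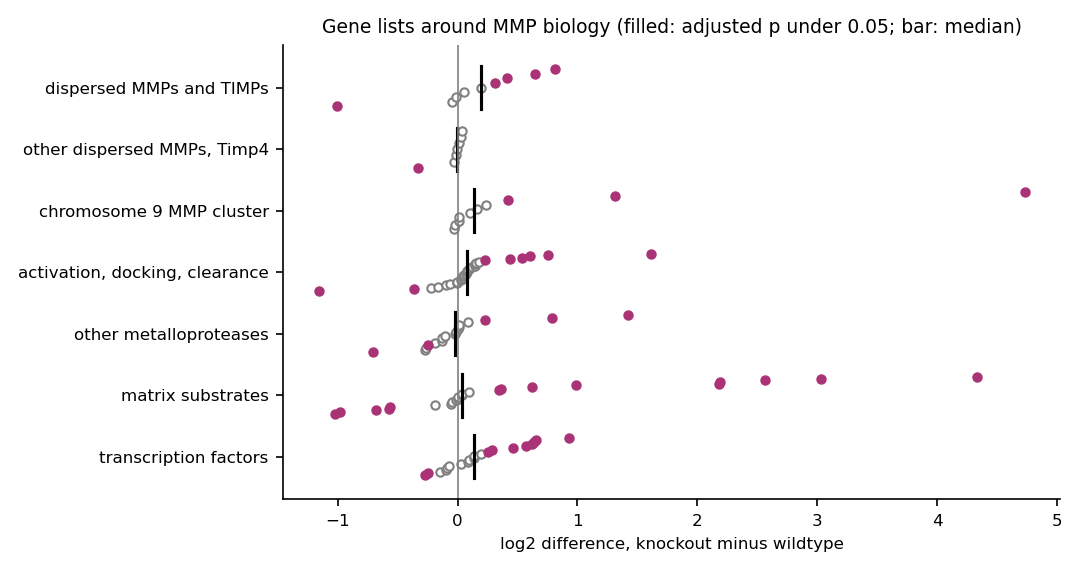
Log2 difference, knockout minus wildtype (horizontal axis), of every measured gene in 7 gene lists (rows), filled where the adjusted p was under 0.05, with the list median as a bar. The medians lie between -0.02 and 0.20, and the dispersed MMPs and TIMPs have 4 filled points above 0 and 1 below.

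Markers of some other cell types also differed between the lines. Of 9 mesangial, pericyte and smooth muscle markers 4 rose, and their mean log2 intensity per array was 7.39 to 7.51 in wildtype and 8.44 to 8.56 in knockout, with Des, Myh11, Cspg4, Rgs5 and Itga8 within the background range. Of 7 fibroblast markers 2 rose (6.63 to 6.72 against 7.79 to 7.83), with Lum, Thy1, Fap, Col1a2 and Col3a1 within it, and of 8 tubular markers 5 fell (9.29 to 9.36 against 8.46 to 8.54), with Umod, Slc12a1 and Cubn within it. The largest tubular falls were in Aqp1 (12.92 in wildtype and 9.42 in knockout), Cdh16 (11.60 and 10.1) and Pax8 (11.42 and 10.69). These means lay above the background range in both lines, and none of the 8 tubular markers rose. All 8 endothelial markers lay within the background range. Of 10 leukocyte and macrophage markers 2 rose and 2 fell (6.65 to 6.83 against 6.61 to 6.71), with Ptprc and Itgam among the 7 within the background range. The part of these markers in the MMP and TIMP differences was not tested, and in bulk RNA fewer cells of a type and less RNA per cell cannot be told apart.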

How the data were processed

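Total RNA from 6 podocyte cultures was hybridized as biotin-labelled cDNA, per the labels' protocols. Per the submitters' processing notes, the authors made the deposited log2 values by RMA in affy 1.44.0, which corrects background, quantile-normalizes and summarises each probe set and can compress differences near background. The probe definition file is not given in the sources used here. Of 72688 probe sets, 186 were controls, 31258 named 1 gene in the platform annotation, 1492 named several and 39752 were unnamed here. Symbols were updated through a RefSeq table (GRCm38.p6), used only for names, chromosomes, gene order and gene overlaps. For each gene the probe set with the highest mean was kept, giving 30704 genes.

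The groups were compared in limma 3.58.1 under R 4.3.3 (lmFit, eBayes, no covariate, two-sided, Benjamini-Hochberg adjusted p under 0.05 over all genes, no filter), after testing on simulated data. Ratios used exact permutation (scipy 1.17.1). Precision is limited by the number of arrays. The genes and lists were chosen with earlier results of these data known. Named were all members, the targeted genes, up to 3 passing genes of each list with the largest change, and up to 2 passing neighbours per member; others are stated as chosen after their values were seen. Protein sequences were not analysed here.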

Additional observations from a re-analysis of the deposited data

How the results depend on the processing

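Mmp2, Mmp14, Mmp19 and Timp3 kept their direction and passed under all 16 alternatives run for each, with log2 differences from -1.06 to -0.97, 0.77 to 0.90, 0.61 to 0.72 and 0.36 to 0.45. Timp2 ran from 0.25 to 0.415 and missed the threshold only without wildtype replicate 3. Timp1 ran from 0.11 to 0.41 and passed with chromosome medians taken off and with array weights (0.18, limma adjusted p = 0.0266), a fit that did not converge, with a weight of 54.8 for wildtype array 3. Of the genes that did not pass, Timp1 did not turn its sign. Mmp9 was 0.0 without wildtype replicate 1 and negative in the others of its 14 alternatives. Mmp23 turned to 0.028 with array weights and ran from -0.092 to 0.0765 over the fits that left out an array. Mmp11 turned to -0.022 without knockout replicate 3; the cause was not tested. The count of members past the threshold was 4 to 6, with 6 under chromosome medians and array weights.

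Over all genes, 3670 passed; array weights gave 10171, a threshold of 0.01 gave 1949, and leaving out an array gave 2080 to 3389, the lowest being 2080 without wildtype replicate 3, then 2234 and 2312 when knockout replicate 1 or 2 was left out. Whether the replicate numbers pair the samples was not settled. Deviations of same-numbered arrays correlated at 0.35, 0.28 and 0.04. Knockout array 3 correlated best with another number, and every other array correlated best with its own number. The replicate block gave 3766 genes and the same 5 members, and for the ratios a mean within numbers of -1.32 for Mmp2 to Timp2, with a smallest possible sign-flip p of 0.25. Other probe sets of a member could not be tried, since each had 1.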

Other observations

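Of 20 measured transcription factor genes with known sites in MMP or TIMP promoters, 8 were higher in knockout, 2 were lower and 10 did not pass, with a median log2 difference of 0.14. Lef1, a nuclear partner of beta-catenin, rose from 7.72 ± 0.09 to 8.65 ± 0.12 (SD, n = 3 each; log2 difference 0.93, limma adjusted p = 0.000791), with the wildtype mean within the background range. Tfap2a, which encodes AP-2 alpha, rose by 0.65 (limma adjusted p = 0.00481), and the AP-1 subunit gene Fos by 0.64 from a background-range wildtype mean (limma adjusted p = 0.000754). The exact AP-1 element TGANTCA was in none of the 8 promoter windows examined. Other forms of the site were not searched, and Mmp2, Mmp9 and Mmp19 had no window.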
